A study of Mus musculus with 16 samples.

Results

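The amino acid transporter genes analyzed here are the 43 genes whose symbols place them in the solute carrier families SLC1, SLC3, SLC7, SLC36, SLC38 and SLC43, out of 38926 gene names in the larger expression tables. Membership was set by symbol alone, and the families were chosen with earlier results of these data known. SLC1 contributed 7 genes, SLC3 2, SLC7 15, SLC36 4, SLC38 11 and SLC43 3, and the last is Slc7a6os, which is named as the opposite-strand neighbour of Slc7a6 and is not a carrier. All 43 were found in each of the 3 tables.

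RNA was measured in endothelial cells (ECs) sorted by flow cytometry from the bones of mice, all on the C57BL/6 background. One comparison set ECs of the metaphysis, next to the growth plate (mpECs, 3 libraries), against ECs of the marrow cavity in the bone shaft (bmECs, 3 libraries), both labelled wildtype and, per the methods, taken from 3-week-old mice with an endothelial fluorescent reporter. The other comparisons used tamoxifen-inducible Cdh5-CreERT2, a Cre recombinase driven by the promoter of the VE-cadherin gene of ECs. In the first of these, Cre-positive mice with floxed Yap1 and Wwtr1 (the gene for Taz), 3 libraries, stood against Cre-negative mice with the same floxed alleles, 3 libraries, all of postnatal day 21. In the second, 2 libraries of Cre-positive mice with floxed Lats2 (Lats2 iΔEC) stood against 2 libraries of Cre-negative mice with floxed Lats2, and per the methods these mice were also 3 weeks old. Yap1 and Taz are transcriptional coactivators of the Hippo pathway, and Lats2 is a kinase that restrains them.

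Amino acid carriers supply cells with building blocks for protein, with glutamine and glutamate for energy and nucleotide metabolism, with cystine for glutathione and with arginine for nitric oxide. Several work as exchangers that trade an intracellular amino acid for an extracellular one, so that the uptake of essential amino acids depends on carriers that first accumulate glutamine. Most light chains of the SLC7 family reach the cell surface only when bound to the heavy chain Slc3a2. Carriers in the lysosome report amino acid supply to the growth-promoting kinase complex mTORC1.

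The values are FPKM, sequenced fragments scaled to gene length and library size, so that levels of genes can be compared within a library. Read numbers estimated from the FPKM values, exon lengths and the smallest steps in each library came to 11112821 to 14742205 per library for mpECs and bmECs, 4885958 to 7161599 for the Yap1/Taz series and 4729890 to 7067494 for the Lats2 series. The 3 tables were made separately and were tested separately, and values from different tables are only set side by side. A gene was tested with limma on log2(FPKM + 1) where its mean reached 1 FPKM, and was called at an adjusted p under 0.05. Fold changes are on this scale and understate the change of low genes. The labels name replicates without saying that they came from separate animals, so the p-values measure the spread between libraries. The methods state biological triplicates, although the Lats2 series has 2 libraries per group. The targeted genes were checked first. In the libraries labelled Yap1/Taz iΔEC, Yap1 had 1.23 ± 0.339 FPKM in controls and 1.15 ± 0.245 FPKM (SD, n = 3), and Wwtr1 was higher, at 10.1 ± 0.240 against 18.1 ± 2.48 FPKM (log2 fold change 0.78, SE 0.12, adjusted p = 0.0272), which goes against the label as far as whole-gene FPKM can tell. Lats2 had 23.7 ± 0.471 FPKM in controls and 19.2 ± 0.0108 FPKM in Lats2 iΔEC (log2 fold change -0.29, SE 0.11, adjusted p = 0.125, n = 2 each), which did not pass the test. The 8 endothelial markers were expressed in every comparison. Each blood or bone marker list was also measured, and those with members that changed are given beside the results.

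The transporters fell into a widely expressed set and a low one. Of the 43 genes, 21 reached a mean of 1 FPKM in all 3 tables, 7 did so in some tables and 15 in none. The low set comprises Slc1a2, Slc1a6, Slc1a7, Slc36a2, Slc36a3, Slc38a4, Slc38a8, Slc38a11, Slc7a3, Slc7a9, Slc7a11, Slc7a12, Slc7a13, Slc7a14 and Slc7a15. Slc7a12 and Slc7a15 were listed at 0 in all 16 libraries. The most abundant gene was Slc43a3 in mpECs and bmECs and in the Lats2 series, and Slc38a2 in the Yap1/Taz series. Slc43a3 is grouped here by its symbol, although the protein is known as a carrier of purine nucleobases. Slc3a2, the heavy chain that escorts SLC7 light chains to the membrane, was second in every table.

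**Figure D1:**
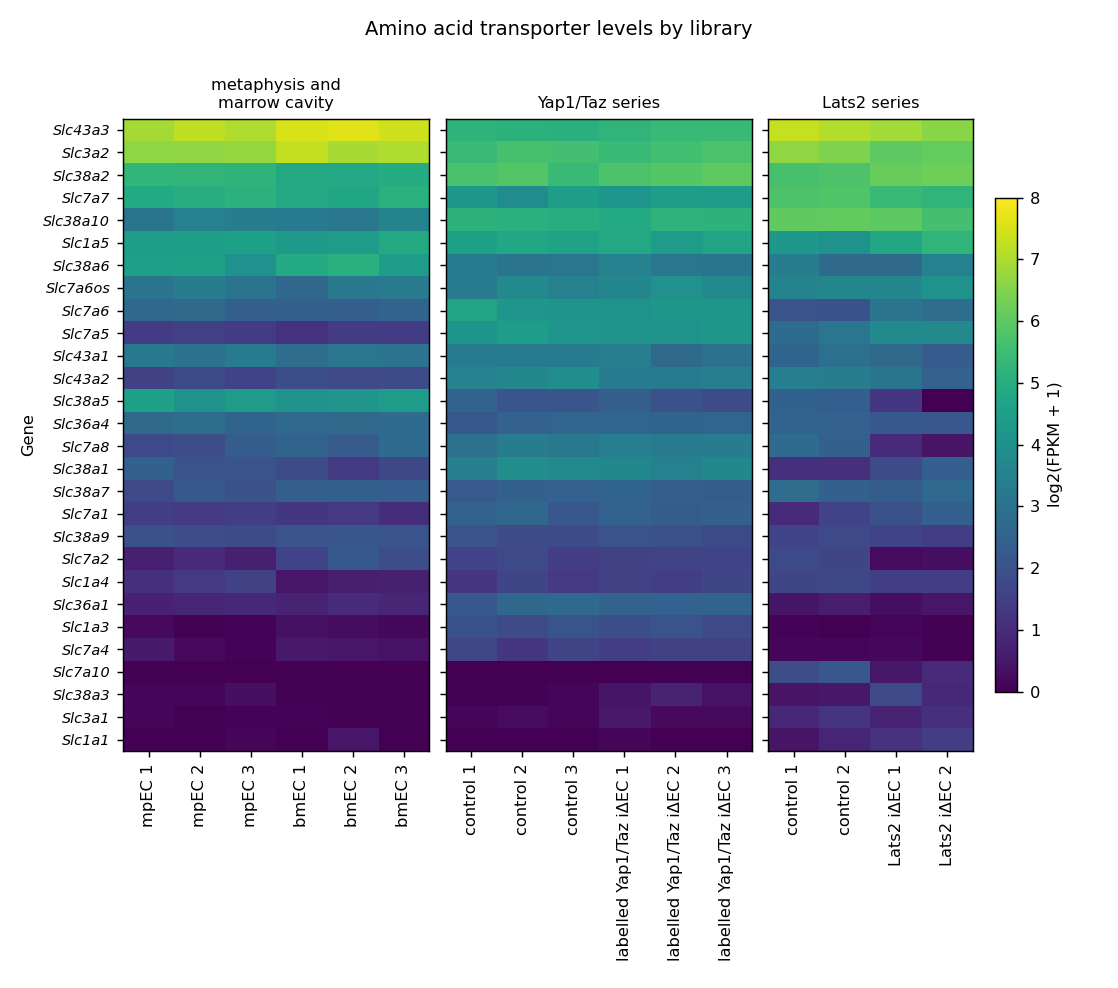
Levels of the 28 transporters whose mean reached 1 FPKM in any table, as log2(FPKM + 1) by colour, with 1 column per library and the 3 separately made tables in 3 panels. By mean over libraries, Slc43a3, Slc3a2 and Slc38a2 are the 3 highest genes of each panel, and Slc7a10 is dark outside the Lats2 series.

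Glutamate carriers of the SLC1 family were low, and almost absent in mpECs and bmECs. The summed FPKM of Slc1a1, Slc1a2, Slc1a3, Slc1a6 and Slc1a7 was 0.0515 to 0.605 per library in mpECs and bmECs. In the Lats2 series it was 0.373 and 0.803 in controls and 1.42 and 1.80 in Lats2 iΔEC. Most of that came from Slc1a1, which was not called (limma adjusted p = 0.157). In the Yap1/Taz series the sum was 2.47 to 3.23 FPKM, nearly all of it from Slc1a3, a carrier best known from astrocytes. The cystine and glutamate exchanger Slc7a11 was under the filter of 1 FPKM in every table and was not tested. It had 0.669, 0.285 and 0.284 FPKM in mpECs and 0.184, 0.0940 and 0.181 FPKM in bmECs, on 38 to 115 estimated reads per mpEC library and 12 to 30 per bmEC library. In the Lats2 series it had 0.125 and 0.284 FPKM in the controls and 0.0943 and 0.0357 FPKM in the Lats2 iΔEC libraries. These rested on only 8.7 and 23.5 estimated reads in the controls and 4.9 and 2.5 in Lats2 iΔEC. Its values were lower in each bmEC than in each mpEC library and in each Lats2 iΔEC than in each control library, while those of the Yap1/Taz series, 0.417 to 1.91 FPKM, overlapped. Groups without overlap were found for 41.3% of all genes tested between mpECs and bmECs and for 68.2% in the Lats2 series. Glutamine carriers stood far above these. Slc1a5, an exchanger of glutamine and other neutral amino acids, ranged from 16.2 to 36.4 FPKM over all libraries.

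The first comparison asks how ECs of the metaphysis and of the marrow cavity differ. Among 21 transporters that were tested, 3 had more RNA in bmECs and 2 had less. Over all 11422 genes tested, 23.5% were called, 13% as higher and 10.5% as lower, so that the share among transporters, 23.8%, was near the background. Under the stricter rule of an adjusted p under 0.01 and a log2 fold change over 0.5, 6.51% of all genes were higher and 5.17% lower, and of the transporters Slc7a2 alone was called. The median log2 fold change was 0.0074 over the tested transporters and -0.000677 over all genes tested. In sorted bulk samples, a lower share of cells that express a gene and less of its RNA per cell cannot be told apart.

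Slc7a2, a carrier that takes up arginine, lysine and ornithine, showed the largest rise of the transporters in bmECs. It lies on GRCm38 at chr8:40862396-40922308 and had 0.638, 0.987 and 0.631 FPKM in mpECs and 2.08, 3.62 and 2.69 FPKM in bmECs. Its mpEC mean of 0.752 FPKM lay under the filter of 1 FPKM, so it was tested only through the bmECs. Without the filter it was also called (limma adjusted p = 0.0153). All bmEC libraries lay above all mpEC libraries (log2 fold change of 1.10 with SE 0.18, limma adjusted p = 0.00382), and the estimated reads behind these values numbered 56 to 90 in mpECs and 156 to 313 in bmECs. The other cationic carrier of this kind that was expressed, Slc7a1, was not called, at 1.69 ± 0.173 and 1.34 ± 0.243 FPKM in mpECs and bmECs. The summed level of Slc7a1, Slc7a2 and Slc7a3 was 2.44 to 2.54 FPKM in mpECs and 3.51 to 5.14 FPKM in bmECs.

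The heavy chain Slc3a2 (chr19:8706882-8723369) also rose, with 99.0, 102 and 104 FPKM in mpECs and 153, 124 and 132 FPKM in bmECs (log2 fold change of 0.41 with SE 0.09, limma adjusted p = 0.0157). Its light chains did not rise with it as a sum, which was 39.0 to 44.6 FPKM in mpECs and 35.6 to 46.4 FPKM in bmECs. The ratio of Slc3a2 to the sum of the FPKM of 6 light chains (Slc7a5, Slc7a6, Slc7a7, Slc7a8, Slc7a10 and Slc7a11) was thus 2.34 to 2.54 in mpECs and 2.85 to 3.99 in bmECs. Slc7a7, which exports arginine and lysine in exchange for neutral amino acids and sodium, made up 71.7% to 76.7% of the light chain sum. It had 28.9, 30.6 and 34.2 FPKM in mpECs and 27.5, 25.6 and 33.6 FPKM in bmECs, and the groups overlapped. Slc7a5, the exchanger of large neutral amino acids that supplies leucine to many growing cells, had only 1.70, 1.84 and 1.64 FPKM in mpECs and 1.21, 1.68 and 1.67 FPKM in bmECs. Slc7a6, a relative of Slc7a7, had 5.36, 5.86 and 4.36 FPKM in mpECs and 4.59, 4.34 and 4.90 FPKM in bmECs. Neither passed the test. Slc7a8, a second exchanger of neutral amino acids, had 2.39, 2.71 and 4.11 FPKM in mpECs and 4.85, 3.91 and 5.96 FPKM in bmECs, and with one mpEC library above the lowest bmEC library it was not called (log2 fold change of 0.55 with SE 0.19, limma adjusted p = 0.0776).

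Slc43a3 (chr2:84936579-84958509) was higher in bmECs, with 121, 148 and 132 FPKM in mpECs and 183, 195 and 172 FPKM in bmECs (log2 fold change of 0.45 with SE 0.10, limma adjusted p = 0.0131). Its groups did not overlap. Its family members Slc43a1 and Slc43a2, which let branched-chain and other neutral amino acids pass without exchange, were not called, at 8.002 ± 0.847 and 7.10 ± 0.795 FPKM and at 2.15 ± 0.294 and 2.60 ± 0.210 FPKM in mpECs and bmECs.

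Slc38a2 and Slc1a4 were the transporters that fell in bmECs. Slc38a2 (chr15:96687392-96699730), the sodium-coupled system A carrier that accumulates glutamine and alanine, had 37.8, 36.2 and 36.0 FPKM in mpECs and 27.7, 27.1 and 29.7 FPKM in bmECs (log2 fold change of -0.37 with SE 0.08, limma adjusted p = 0.0112). Each bmEC library lay below each mpEC library. Slc1a4 (chr11:20302180-20332713), an exchanger of alanine, serine and cysteine, had 1.09, 1.51 and 1.94 FPKM in mpECs and 0.402, 0.593 and 0.628 FPKM in bmECs (log2 fold change of -0.70 with SE 0.17, limma adjusted p = 0.0208). It is a low gene, with 53 to 74 estimated reads per mpEC library and 13 to 29 per bmEC library. Its bmEC mean of 0.541 FPKM lay under the filter, so it was tested only through the mpECs. Without the filter it was also called (limma adjusted p = 0.0399).

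**Figure D2:**
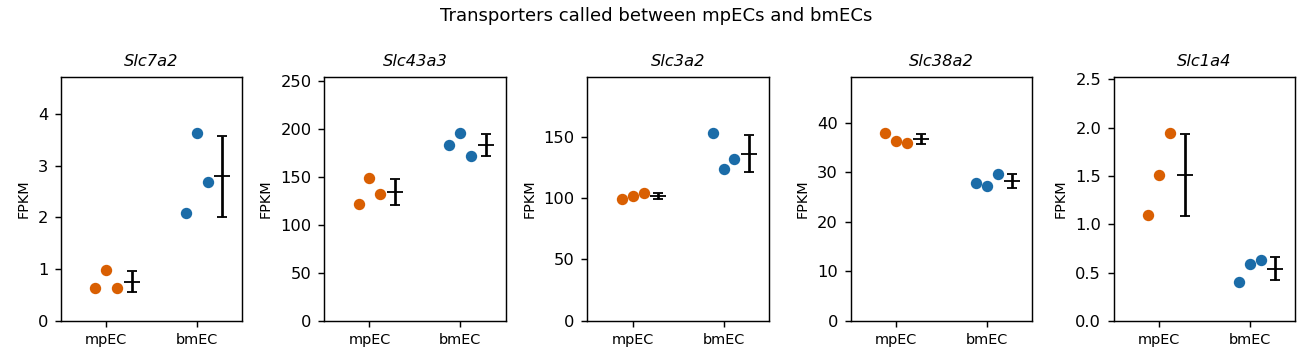
FPKM of the 5 transporter genes called between mpECs (3 libraries) and bmECs (3 libraries), with 1 point per library and the mean and SD beside the points. Slc7a2, Slc43a3 and Slc3a2 are higher in every bmEC library, and Slc38a2 and Slc1a4 are lower. Groups without overlap were found for 41.3% of all genes tested.

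Other glutamine carriers showed no called difference. The second system A carrier, Slc38a1, had 4.54, 3.13 and 3.09 FPKM in mpECs and 2.65, 1.56 and 2.35 FPKM in bmECs (adjusted p = 0.0744). Its groups did not overlap, which also held for 41.3% of all genes tested. Slc38a5, a system N carrier that moves glutamine, histidine and glycine in either direction, had 22.7, 16.1 and 20.3 FPKM in mpECs and 16.4, 17.2 and 20.3 FPKM in bmECs. Slc1a5 had 21.5, 21.1 and 22.8 FPKM in mpECs and 19.0, 20.2 and 28.5 FPKM in bmECs. These last groups overlapped. Slc38a6, a relative of unclear substrate, was among the 5 most abundant transporters, with 22.1, 22.6 and 15.7 FPKM in mpECs and 28.9, 32.5 and 20.5 FPKM in bmECs (adjusted p = 0.164). Of the lysosomal carriers, Slc38a7, which exports glutamine and asparagine, had 2.99 ± 0.637 and 4.39 ± 0.156 FPKM in mpECs and bmECs and just missed the threshold (adjusted p = 0.0515), and Slc38a9, the arginine sensor upstream of mTORC1, had 2.75 ± 0.169 and 3.24 ± 0.167 FPKM. The proton-coupled carrier Slc36a4 had 5.71 ± 0.754 and 5.83 ± 0.198 FPKM, Slc38a10, of the SLC38 family, had 9.19 ± 1.37 and 9.26 ± 1.60 FPKM, and Slc7a6os had 8.11 ± 1.23 and 7.59 ± 1.85 FPKM, with no call for any of them. The 15 untested genes above 0 had means of at most 0.811 FPKM. Among them Slc36a2, a proton-coupled carrier of glycine and proline, was called lower when the filter was left out, with 1.04, 0.493 and 0.380 FPKM in mpECs and 0, 0 and 0 FPKM in bmECs, from 42, 16 and 12 estimated reads in mpECs and none in bmECs. A further 7 genes, Slc7a10 among them, were listed at 0 in all 6 libraries.

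Single libraries decided 2 of these calls. Slc43a3 was not called without mpEC replicate 3 (adjusted p = 0.0505) or without bmEC replicate 2 (0.0535). Slc1a4 was not called without bmEC replicate 1 (0.0677) or bmEC replicate 2 (0.0502) and fell under the filter without mpEC replicate 2 or mpEC replicate 3. The adjusted p over all alternatives was 0.00684 to 0.0535 for Slc43a3 and 0.012 to 0.0677 for Slc1a4. Slc7a2, Slc3a2 and Slc38a2 were called without any 1 library.

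Markers of other cells differed between the groups as well. Of the osteoblast markers 3 of the 5 tested were lower in bmECs, and the summed FPKM of the 6 listed was 122 to 546 in mpECs and 40.9 to 52.3 in bmECs. Chondrocyte markers were lower for 2 of 2 tested, with sums of 15.5 to 17.7 FPKM in mpECs and 0.0116 to 0.0682 FPKM in bmECs, where Col2a1 was listed at 0. Osteoclast markers were lower for 3 of 3, with sums of 41.0 to 75.1 and 23.9 to 27.9 FPKM. Marrow stroma and pericyte markers were higher for 3 of 4, with sums of 166 to 229.6 FPKM in mpECs and 496 to 525 FPKM in bmECs. In the macrophage list 1 of 6 was higher (Mrc1, which sinusoidal ECs also express), with sums of 189.5 to 239.6 FPKM in mpECs and 343 to 450.5 FPKM in bmECs that did not overlap. In the erythroid list 1 of 6 was higher (17700 to 32900 and 27520 to 37790 FPKM), in the neutrophil list 0 of 6 were called (9815 to 23450 and 8012 to 11850 FPKM), and in the B cell list 1 of 6 was lower (142 to 288 and 122 to 159 FPKM). The endothelial markers split, with 3 higher and 3 lower of 8, and their sums, 795 to 1011 and 894 to 914 FPKM, lay far below the erythroid and neutrophil sums. The part of these cells in the transporter differences was not tested.

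Genes that use the transported amino acids moved unevenly. Of 10 tested arginine and nitric oxide genes, bmECs had 7 lower and 2 higher, and the list had a median log2 fold change of -0.957. Ddah1, which breaks down inhibitors of nitric oxide synthase, went from 12.9 ± 0.469 to 3.79 ± 0.647 FPKM (log2 fold change of -1.55 with SE 0.12, limma adjusted p = 0.000124), and Ass1, which makes arginine anew from citrulline, from 12.6 ± 2.16 to 4.78 ± 0.558 FPKM (log2 fold change of -1.23 with SE 0.14, limma adjusted p = 0.000666). Nos3, the endothelial nitric oxide synthase, went from 5.72 ± 1.37 to 1.88 ± 0.626 FPKM (log2 fold change of -1.23 with SE 0.20, limma adjusted p = 0.00357). The fall of these genes stood beside the rise of the arginine carrier Slc7a2. Enzymes of glutamine, glutamate and branched-chain amino acids were higher for 5 of 14 tested and lower for none, led by the transaminases Gpt2 (1.28 to 3.12 FPKM) and Got1 (6.68 to 9.96 FPKM) and the glutamine synthetase Glul (58.2 to 82.8 FPKM).

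Of the glutathione and cystine genes 4 of 11 were higher and 1 lower, with Ctns, the lysosomal cystine exporter, going from 8.58 to 15.4 FPKM, Nfe2l2, the regulator of antioxidant genes, from 56.3 to 78.5 FPKM, and Gclc, which makes the glutathione precursor, from 4.01 to 2.84 FPKM. In the ATF4 list, genes of the response to amino acid shortage, 2 of 20 were higher (Trib3, log2 fold change 0.73, and Cebpg, 0.51) and 1 was lower (Mthfd2, -0.53). Of 26 genes of mTORC1 and amino acid sensing, 2 were higher and 2 lower, with log2 fold changes of -0.96 for the leucine-sensor family member Sesn3, 0.55 for Seh1l and -0.35 for Sesn1. Among 20 cytosolic aminoacyl-tRNA synthetases, which load amino acids onto tRNA, 1 was lower (Gars, -0.28). Among 12 tested carriers of other families 1 was lower, the taurine carrier Slc6a6 (47.2 ± 6.97 to 24.5 ± 3.39 FPKM, log2 fold change of -0.92 with SE 0.14, limma adjusted p = 0.0025).

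The second comparison was designed around the deletion of Yap1 and Taz in ECs. Since Wwtr1 was higher and Yap1 was not called in the libraries labelled Yap1/Taz iΔEC, a loss of either was not seen in whole-gene FPKM. The paper reports lower Yap1 and Wwtr1 transcripts by quantitative PCR in isolated bone ECs of such mutants. Whether the labels are crossed was not tested, and every direction below follows the labels and would turn if they were. None of the 24 transporter genes tested was called in the libraries labelled Yap1/Taz iΔEC by limma, and 1 had an unadjusted p under 0.05. Limma-voom on estimated reads also called 0. Over all 11320 genes tested 1.31% were called, with 0.883% higher and 0.424% lower, so few calls were made anywhere, and 17.9% had an unadjusted p under 0.05. The stricter rule called 0 transporters and 0.00883% of all genes as lower. The smallest adjusted p of a transporter was 0.147. The log2 fold changes ran from -0.373 to 0.313, and the 95% confidence interval of a single gene reached 0.21 to 0.42 to either side, which limits the size of a change that these libraries could have hidden. The median was 0.0037 over the transporters and -0.00472 over all genes tested.

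The gene nearest to a call was Slc43a2, the facilitated carrier of branched-chain amino acids, with 10.6, 12.02 and 14.2 FPKM in the controls and 8.89, 9.06 and 9.64 FPKM in the libraries labelled Yap1/Taz iΔEC (log2 fold change of -0.37 with SE 0.12, limma adjusted p = 0.147, 95% confidence interval -0.64 to -0.10). Its groups did not overlap, and 9.2% of its exon bases lie opposite another gene. Slc43a3 was the only other tested transporter without overlap, with 35.5, 34.6 and 32.6 FPKM in the controls and 36.5, 41.1 and 42.0 FPKM in the libraries labelled Yap1/Taz iΔEC, and 23.6% of all genes tested had groups without overlap.

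The abundant transporters lay close together in the groups. Slc38a2 had 50.5, 57.0 and 42.0 FPKM in the controls and 52.9, 58.1 and 63.8 FPKM in the libraries labelled Yap1/Taz iΔEC. Slc3a2 had 42.6, 50.3 and 47.4 FPKM in the controls and 41.5, 46.4 and 51.7 FPKM in the libraries labelled Yap1/Taz iΔEC. Slc38a10 had 35.4, 32.7 and 30.8 FPKM in the controls and 28.6, 35.9 and 35.2 FPKM in the libraries labelled Yap1/Taz iΔEC. In each of these the groups overlapped, and so they did for Slc1a5, with 22.4, 26.2 and 23.4 FPKM in the controls and 27.2, 20.7 and 24.2 FPKM in the libraries labelled Yap1/Taz iΔEC. The carriers that differed elsewhere in the series were examined one by one. Slc7a5 had 16.7, 21.2 and 16.9 FPKM in the controls and 15.9, 16.1 and 17.9 FPKM in the libraries labelled Yap1/Taz iΔEC, and the 95% confidence interval of its log2 fold change was -0.38 to 0.14. Slc7a6 had 24.6, 17.2 and 16.8 FPKM in the controls and 16.2, 18.0 and 17.8 FPKM in the libraries labelled Yap1/Taz iΔEC, and its highest library was a control. Slc38a1 had 9.72, 14.6 and 12.8 FPKM in the controls and 12.2, 10.5 and 12.3 FPKM in the libraries labelled Yap1/Taz iΔEC, with a confidence interval of -0.38 to 0.26. None of these sets of libraries separated the groups. Slc7a8 had 7.11, 9.47 and 8.41 FPKM in the controls and 9.61, 8.69 and 9.38 FPKM in the libraries labelled Yap1/Taz iΔEC. Slc7a2 had 2.03, 2.42 and 1.72 FPKM in the controls and 1.97, 2.12 and 2.08 FPKM in the libraries labelled Yap1/Taz iΔEC. The low genes among them gave the same picture, with overlap throughout. Slc38a5 had 4.70, 3.31 and 3.32 FPKM in the controls and 4.40, 2.98 and 2.51 FPKM in the libraries labelled Yap1/Taz iΔEC. Slc1a4 had 1.40, 2.18 and 1.52 FPKM in the controls and 2.02, 1.79 and 2.20 FPKM in the libraries labelled Yap1/Taz iΔEC. Slc7a10, the small neutral amino acid exchanger asc-1, was listed at 0 in all 6 libraries.

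The light chain mixture of this series was unlike that of mpECs and bmECs, set side by side. Slc7a7 held 22.1% to 33.0% of the light chain sum, Slc7a5 24.7% to 34.0% and Slc7a6 26.5% to 36.5%, over all 6 libraries. Slc3a2 did not exceed the light chains, with a ratio of 0.631 to 0.806 in controls and 0.681 to 0.780 in the libraries labelled Yap1/Taz iΔEC. The remaining tested genes, Slc1a3, Slc36a1, Slc36a4, Slc38a6, Slc38a7, Slc38a9, Slc43a1, Slc7a1, Slc7a4, Slc7a7 and Slc7a6os, had group means of 1.87 to 19.7 FPKM and no call. Of the 19 genes below 1 FPKM, 5 were listed at 0 in all libraries and the others had means of at most 0.902 FPKM.

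Among the linked lists, Atf4, the transcription factor of the amino acid response, was the one called gene of 20 in its list, going from 144 ± 2.95 to 209.5 ± 5.11 FPKM (log2 fold change of 0.54 with SE 0.09, limma adjusted p = 0.0347). In the arginine list 1 of 8 was called, Gatm, the first enzyme of creatine synthesis (14.4 ± 0.785 to 22.2 ± 2.50 FPKM, log2 fold change of 0.58 with SE 0.11, limma adjusted p = 0.0423). No gene was called in the lists of mTORC1 and sensing (30 tested), glutathione (12), glutamine, glutamate and branched-chain enzymes (16), tRNA synthetases (20) or other carrier families (13). Osteoblast markers were lower for 2 of 3 tested, with sums of 23.2 to 30.6 FPKM in controls and 4.49 to 12.7 FPKM in the libraries labelled Yap1/Taz iΔEC, and 1 of 6 megakaryocyte markers was higher, with sums of 159 to 178 and 174 to 196 FPKM. No endothelial marker of 8 was called, with sums of 449 to 453 FPKM in controls and 511 to 609.5 FPKM in the labelled libraries. In the same order, erythroid sums were 3292 to 3976 and 3288 to 4917 FPKM, and neutrophil sums 1268 to 1598 and 1055 to 2258 FPKM. Without a called gene, stroma and pericyte sums were 62.8 to 70.4 and 77.4 to 100.5 FPKM, and B cell sums 187 to 211 and 144 to 153 FPKM. The part of these cells in the values was not tested.

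The third comparison was designed around the deletion of Lats2 in ECs. Lats2 itself was not called lower in these libraries (limma adjusted p = 0.125). The paper reports a significant decrease of Lats2 transcripts in isolated bone ECs of such mutants. Here the transporters had more calls than in the other comparisons. Of 25 genes tested, 5 were higher and 4 lower in Lats2 iΔEC. That is 36% of the tested transporters, against 21.8% of all 12453 genes tested (11.8% higher and 9.98% lower). An unadjusted p under 0.05 was found for 14 transporters and for 38.6% of all genes. The stricter rule called 0 transporters, against 0.851% of all genes as higher and 1.21% as lower. The median log2 fold change was -0.14 over the transporters and -0.00325 over all genes tested. Carriers of neutral amino acids or glutamine were among the genes that rose and among those that fell.

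Promoter sequences are shown for those called genes that have a RefSeq entry, since they were called in the same comparison. The 250 bases before the annotated start on GRCm38.p6 were searched on both strands for GGAATG, the core bound by TEAD factors that partner Yap1 and Taz, for ACGTG, a core of hypoxia response elements that the E-box CACGTG contains, and for TGATGNAAN, a core of the elements bound by ATF4. Capitals mark a match, and for Slc7a6 the first of its 2 annotated starts is shown. Slc38a2 and Slc7a6 rose, and Slc7a8, Slc38a5 and Slc7a10 fell. The windows are chr15:96699729-96699978 (minus strand), chr8:106168604-106168853 (plus), chr14:54781887-54782136 (minus), chrX:8271131-8271380 (plus) and chr7:35186135-35186384 (plus).
Slc38a2: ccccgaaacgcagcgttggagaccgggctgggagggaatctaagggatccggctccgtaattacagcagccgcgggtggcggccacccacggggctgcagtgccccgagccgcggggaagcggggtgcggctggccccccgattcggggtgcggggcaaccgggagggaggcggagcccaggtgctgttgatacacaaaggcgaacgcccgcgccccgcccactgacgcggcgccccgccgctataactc
Slc7a6: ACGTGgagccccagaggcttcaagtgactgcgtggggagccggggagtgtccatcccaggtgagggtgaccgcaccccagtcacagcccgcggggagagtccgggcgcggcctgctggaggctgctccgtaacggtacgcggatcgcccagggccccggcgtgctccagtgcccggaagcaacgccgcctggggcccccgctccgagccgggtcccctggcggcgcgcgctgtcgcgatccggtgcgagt
Slc7a8: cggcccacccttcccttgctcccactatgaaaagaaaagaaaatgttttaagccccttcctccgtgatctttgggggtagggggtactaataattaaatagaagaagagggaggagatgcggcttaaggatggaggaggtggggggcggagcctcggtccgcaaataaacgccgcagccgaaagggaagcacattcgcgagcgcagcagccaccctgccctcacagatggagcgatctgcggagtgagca
Slc38a5: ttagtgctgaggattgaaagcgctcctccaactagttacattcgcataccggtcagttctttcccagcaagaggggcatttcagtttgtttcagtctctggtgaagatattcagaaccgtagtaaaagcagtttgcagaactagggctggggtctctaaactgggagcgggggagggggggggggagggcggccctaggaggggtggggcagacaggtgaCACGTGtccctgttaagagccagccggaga
Slc7a10: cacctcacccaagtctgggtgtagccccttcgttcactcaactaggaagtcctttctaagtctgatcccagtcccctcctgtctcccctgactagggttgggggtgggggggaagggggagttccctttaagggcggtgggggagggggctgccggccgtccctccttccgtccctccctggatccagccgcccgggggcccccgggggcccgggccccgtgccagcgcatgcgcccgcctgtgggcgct
GGAATG was in none of the 5 windows, and ACGTG was in those of Slc7a6 and Slc38a5, one a gene that rose and one a gene that fell. Over all 27025 genes with an entry, 14.4% held GGAATG, 18.5% ACGTG and 3.89% TGATGNAAN. Of the 32 transporters with an entry, 5 held GGAATG (Slc1a6, Slc36a1, Slc43a1, Slc43a2 and Slc7a7), 11 held ACGTG and 2 held TGATGNAAN (Slc7a7 and Slc7a11). A match describes these letters only, and elements outside the window were not searched.

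The light chains changed in opposite directions. Slc7a5 (chr8:121881150-121907694) had 6.07 and 7.80 FPKM in the controls and 13.1 and 13.2 FPKM in the Lats2 iΔEC libraries (log2 fold change of 0.84 with SE 0.16, limma adjusted p = 0.0236). Slc7a6 (chr8:106168857-106198706), the gene whose window begins with ACGTG, had 3.12 and 3.02 FPKM in the controls and 7.53 and 6.30 FPKM in the Lats2 iΔEC libraries (log2 fold change of 0.95 with SE 0.16, limma adjusted p = 0.019). In both genes the Lats2 iΔEC libraries lay above the controls. Slc7a8 (chr14:54722209-54781946), which shares neutral substrates with Slc7a5, had 5.98 and 4.46 FPKM in the controls and 0.920 and 0.349 FPKM in the Lats2 iΔEC libraries (log2 fold change of -1.94 with SE 0.27, limma adjusted p = 0.0132), which rested on 149 and 133 estimated reads in controls and 17 and 9 in Lats2 iΔEC. Slc7a10 (chr7:35186385-35201114), which carries small neutral amino acids such as glycine and serine, had 2.69 and 3.48 FPKM in the controls and 0.430 and 0.979 FPKM in the Lats2 iΔEC libraries (log2 fold change of -1.27 with SE 0.27, limma adjusted p = 0.0297). Both lay lower in each Lats2 iΔEC library. The reads of Slc7a10 in Lats2 iΔEC were only 3 and 10 by estimate, 17.9% of its exon bases lie opposite Lrp3, and without a stated strand setting the reads of such partners cannot be told apart.

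The most abundant partners did not pass the test in the main fit. They were called lower under the 5 FPKM filter and quantile scaling, but not with no filter, median-of-ratios scaling or a pseudocount of 0.1. Slc3a2 had 99.9 and 86.1 FPKM in the controls and 64.4 and 67.9 FPKM in the Lats2 iΔEC libraries (log2 fold change of -0.48 with SE 0.13, limma adjusted p = 0.0528). Slc7a7 had 53.2 and 55.6 FPKM in the controls and 42.1 and 36.5 FPKM in the Lats2 iΔEC libraries (log2 fold change of -0.46 with SE 0.13, limma adjusted p = 0.0554). Both lay lower in each Lats2 iΔEC library, and 68.2% of all genes tested had groups without overlap in this comparison of 2 against 2. By share of the light chain sum, Slc7a5 held 8.53% and 10.45% in controls and 20.4% and 23.1% in Lats2 iΔEC, and Slc7a6 held 4.39% and 4.05% against 11.74% and 10.98%. Slc7a8 went from 8.40% and 5.98% to 1.44% and 0.608%, while Slc7a7 kept the largest share, at 74.7% and 74.5% against 65.6% and 63.6%. The ratio of Slc3a2 to the light chain sum was 1.40 and 1.15 in controls and 1.00 and 1.18 in Lats2 iΔEC, with overlap.

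**Figure D3:**
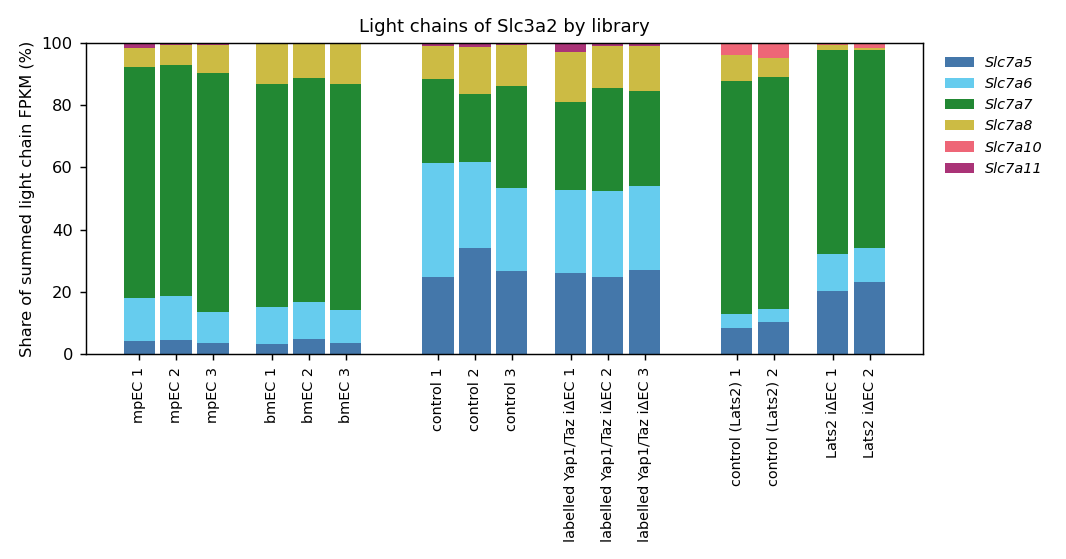
Share of the summed FPKM of 6 Slc3a2 light chains taken by each gene (percent, stacked), with 1 bar per library and the 3 tables set apart. Slc7a7 is the largest part in mpECs, bmECs and the Lats2 series, and in Lats2 iΔEC the parts of Slc7a5 and Slc7a6 are larger and that of Slc7a8 smaller than in the Lats2 controls.

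Glutamine carriers rose as well. Slc38a2, the most abundant system A gene, had 49.6 and 52.9 FPKM in the controls and 70.1 and 74.6 FPKM in the Lats2 iΔEC libraries (log2 fold change of 0.49 with SE 0.11, limma adjusted p = 0.0389). Its relative Slc38a1 (chr15:96571418-96642913) had 1.13 and 1.10 FPKM in the controls and 2.62 and 4.21 FPKM in the Lats2 iΔEC libraries (log2 fold change of 1.04 with SE 0.25, limma adjusted p = 0.0409). Slc1a5 (chr7:16781340-16798274), which trades glutamine for other neutral amino acids, had 18.3 and 16.2 FPKM in the controls and 26.1 and 36.4 FPKM in the Lats2 iΔEC libraries (log2 fold change of 0.80 with SE 0.19, limma adjusted p = 0.0391). For all 3 genes each Lats2 iΔEC library lay above each control. The system N carrier Slc38a5 (chrX:8271133-8280179) went the other way, with 4.57 and 4.20 FPKM in the controls and 1.42 and 0 FPKM in the Lats2 iΔEC libraries (log2 fold change of -1.79 with SE 0.44, limma adjusted p = 0.0431). One of its Lats2 iΔEC libraries had no read and the other 12 by estimate, where 3 reads would be the limit that a count of 0 allows. The system N relative Slc38a3 had 0.342 and 0.429 FPKM in the controls and 2.40 and 0.911 FPKM in the Lats2 iΔEC libraries and was not called (adjusted p = 0.136).

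Among the cationic carriers, Slc7a2 had 2.46 and 2.19 FPKM in the controls and 0.174 and 0.242 FPKM in the Lats2 iΔEC libraries (log2 fold change of -1.46 with SE 0.24, limma adjusted p = 0.0181). The estimated reads were 112 and 119 in controls and 6 and 11 in Lats2 iΔEC, and 7.0% of its exon bases lie opposite another gene. Slc7a1 had 0.934 and 2.06 FPKM in the controls and 2.99 and 4.48 FPKM in the Lats2 iΔEC libraries, higher in each Lats2 iΔEC library, without passing the test (log2 fold change of 0.94 with SE 0.31, limma adjusted p = 0.0836). The summed level of the cationic carriers was 3.40 and 4.25 FPKM in controls and 3.17 and 4.73 FPKM in Lats2 iΔEC, so that the sums overlapped while Slc7a2 fell.

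**Figure D4:**
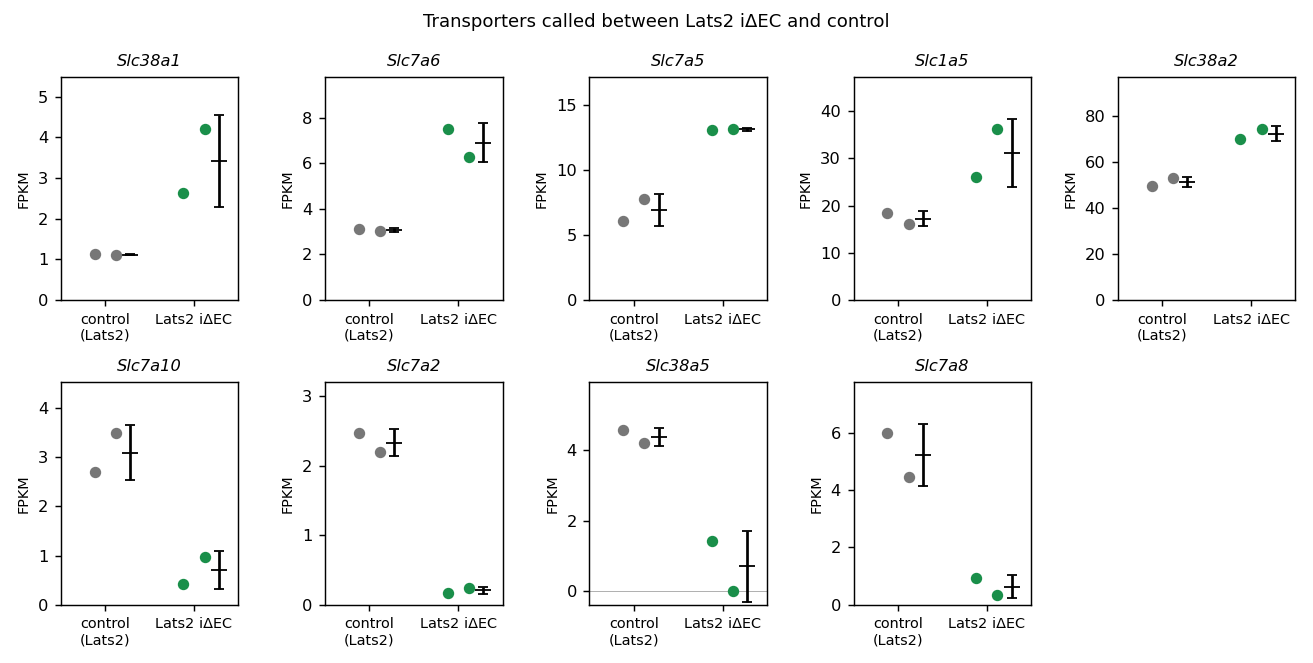
FPKM of the 9 transporter genes called between the Lats2 controls (2 libraries) and Lats2 iΔEC (2 libraries), with 1 point per library and the mean and SD beside the points. The top row holds the 5 genes that were higher and the bottom row the 4 that were lower, with no overlap in any of them. Groups without overlap were found for 68.2% of all genes tested.

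The rest of the expressed transporters were not called. Slc43a3 had 155 and 133 FPKM in the controls and 116 and 94.9 FPKM in the Lats2 iΔEC libraries (adjusted p = 0.103). Slc38a10 had 64.7 and 66.03 FPKM in the controls and 61.7 and 49.4 FPKM in the Lats2 iΔEC libraries. Slc1a4 had 2.20 and 2.31 FPKM in the controls and 1.82 and 1.74 FPKM in the Lats2 iΔEC libraries. These 3 lay lower in each Lats2 iΔEC library without passing the test. Slc43a2 went from 9.64 ± 0.325 to 6.20 ± 2.06 FPKM (SD, n = 2, adjusted p = 0.118). The remaining tested genes, Slc1a1, Slc3a1, Slc36a4, Slc38a6, Slc38a7, Slc38a9, Slc43a1 and Slc7a6os, had group means of 0.558 to 14.1 FPKM. The kidney glutamate carrier Slc1a1 shares 31.9% and the heavy chain Slc3a1 26.5% of its exon bases with a gene on the other strand. Of the 18 genes below 1 FPKM, 8 were listed at 0 in all 4 libraries and the others had means of at most 0.388 FPKM.

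Leaving out single libraries removed most of these calls. Without control replicate 1 or without control replicate 2, no transporter was called, and Slc7a2 then fell under the filter on low values. Without Lats2 iΔEC replicate 1, 3 were higher and 5 lower, and without Lats2 iΔEC replicate 2, 0 were higher and 2 lower (Slc7a2 and Slc7a8). No called gene changed direction in any of these fits. Without the filter on low values 0 were higher and 2 lower, again Slc7a2 and Slc7a8. The 4 genes called lower had means of 0.208 (Slc7a2) to 0.709 FPKM (Slc38a5) in Lats2 iΔEC, so they reached the filter through the controls. The stricter rule called no transporter, but at an adjusted p under 0.05 each alternative fit that tested Slc7a2 kept its call. Slc7a8 lost it in 2 of 10 (0.00506 to 0.143). Slc38a2 lost its call in 7 of 11 alternatives (0.0234 to 0.268) and Slc7a5 in 5 of 11 (0.0136 to 0.176). Slc38a5 lost it in 5 of 10 (0.0186 to 0.234), as did Slc7a10 (0.0255 to 0.199). For Slc1a5 the call was lost in 4 of 11 (0.0181 to 0.236), and in 4 of 10 for Slc38a1 (0.0078 to 0.213) and Slc7a6 (0.0101 to 0.158).

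Several markers of blood cells were lower in Lats2 iΔEC. Erythroid markers were lower for 2 of 6 tested, with sums of 1917 to 2645 FPKM in controls and 179 to 1099 FPKM in Lats2 iΔEC, and neutrophil markers for 4 of 6, with 1390.0 to 2112 and 508 to 591 FPKM. B cell markers were lower for 4 of 5 (73.5 to 83.3 and 21.8 to 28.6 FPKM), macrophage markers for 1 of 5 (215 to 220.1 and 52.1 to 104 FPKM) and megakaryocyte markers for 1 of 5 (29.9 to 112 and 9.72 to 12.2 FPKM). In the marrow stroma and pericyte list 1 of 5 was lower and 1 higher (396 to 441 and 109.6 to 135 FPKM), and 1 of 3 osteoclast markers was higher (28.9 to 34.3 and 32.8 to 57.3 FPKM). Endothelial markers had sums of 1609 to 1707 and 1585 to 1676 FPKM, with 1 of 8 higher and 2 lower. The part of these cells in the transporter differences was not tested.

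Genes of amino acid use changed in several lists. Of the cytosolic tRNA synthetases 5 of 20 were higher and none lower, with Rars, for arginine, going from 19.5 ± 2.70 to 37.2 ± 7.97 FPKM (log2 fold change of 0.89 with SE 0.19, limma adjusted p = 0.0317), Gars, for glycine, from 48.0 ± 4.03 to 78.6 ± 7.85 FPKM (log2 fold change of 0.70 with SE 0.13, limma adjusted p = 0.0252) and Sars, for serine, from 28.1 ± 1.85 to 41.4 ± 1.37 FPKM (log2 fold change of 0.54 with SE 0.12, limma adjusted p = 0.0324). In the arginine and nitric oxide list 6 of 11 were higher and 1 lower. Ddah1 went from 5.49 ± 0.121 to 52.2 ± 18.9 FPKM (log2 fold change of 2.99 with SE 0.26, limma adjusted p = 0.00758) and Odc1, which turns ornithine into the polyamine putrescine, from 50.0 ± 9.96 to 140.3 ± 1.88 FPKM (log2 fold change of 1.48 with SE 0.16, limma adjusted p = 0.01). Gatm went from 89.3 ± 4.91 to 29.8 ± 10.1 FPKM (log2 fold change of -1.59 with SE 0.24, limma adjusted p = 0.0152). Nos3 was also called, going from 54.7 ± 8.56 to 83.2 ± 1.72 FPKM (log2 fold change of 0.61 with SE 0.15, limma adjusted p = 0.0408).

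In the ATF4 list 3 of 22 were higher and 3 lower. Atf3, a stress-induced transcription factor, had a log2 fold change of 1.22, Eif4ebp1, which holds back translation until mTORC1 phosphorylates it, 1.20, and Phgdh, the first enzyme of serine synthesis, -1.18. Of 30 genes of mTORC1 and sensing 3 were higher and 2 lower, with -1.42 for Sesn1, 0.76 for the arginine-sensor relative Castor2 and 0.73 for Lamtor5, a part of the Ragulator complex on lysosomes. Of 11 glutathione and cystine genes 2 were higher (Gss, 0.72, and Txnrd1, 0.56) and 1 lower (Ctns, -0.86). Of 15 enzymes of glutamine, glutamate and branched-chain amino acids 1 was higher (Bckdhb, 0.73), and of 11 other carriers 1 was lower, the mitochondrial glycine carrier Slc25a38 (-0.68).

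The bmEC and Lats2 iΔEC differences were set side by side, from tables that share no library. Of the 21 transporters tested in both, 15 had opposite signs, or 71.4%, against 63% of the 10471 genes tested in both, and across genes, which are not independent replicates, Pearson's r of the log2 fold changes was -0.544 over the transporters and -0.42 over all genes. The signs of the transporters thus differed at a share near that of all genes, and for some of the 15 a fold change was near 0, such as 0.03 on the log2 scale for Slc36a4 in bmECs. Slc7a2 and Slc38a2 were the transporters called in both tables, and both had opposite signs, as had 94.5% of all 972 genes called in both. Slc7a2 had log2 fold changes of 1.10 in bmECs and -1.46 in Lats2 iΔEC, and Slc38a2 -0.37 and 0.49. The Lats2 call of Slc38a2 was lost in 7 of 11 alternatives, among them quantile scaling (adjusted p = 0.0645) and no filter (0.0575), with a range of 0.0234 to 0.268. For the arginine list the directions were likewise turned for Ddah1, Odc1, Ddah2, Nos3 and Gatm, each called in both tables, as they were for the synthetase gene Gars and the cystine exporter Ctns, whereas Sesn1 was lower in both. Slc1a4, Slc1a5, Slc38a5, Slc38a6, Slc43a1 and Slc7a7 kept 1 sign in both.

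**Figure D5:**
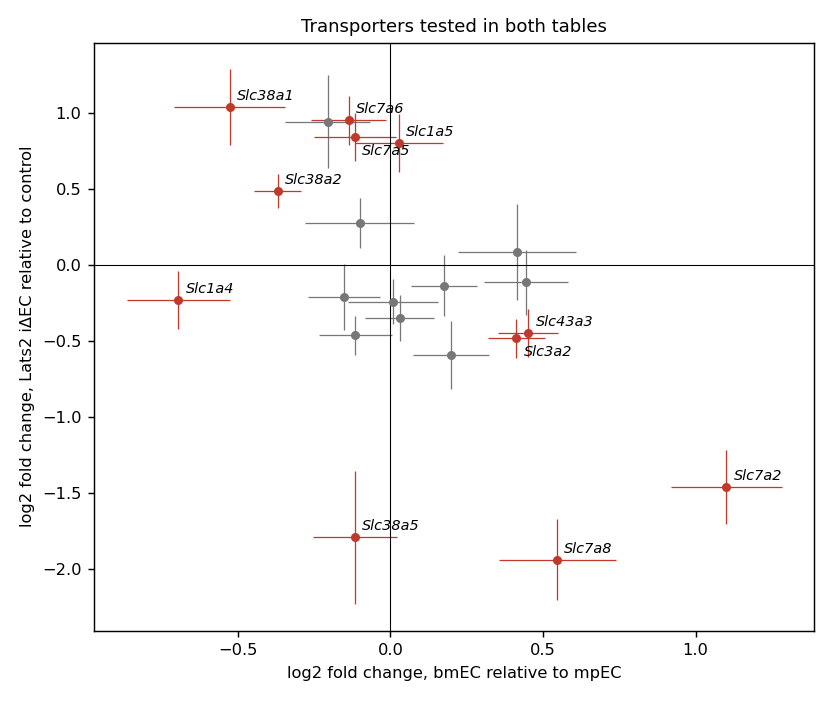
Log2 fold changes of the 21 transporters tested in both tables, bmECs relative to mpECs on the horizontal axis and Lats2 iΔEC relative to control on the vertical axis, with bars for 1 SE. Genes called in at least 1 table are red and named, and 15 points lie in the upper left or lower right, where the signs differ.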

How the data were processed

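RNA of ECs sorted from mouse bone was sequenced from stranded total RNA libraries. Per the labels and the submitters' processing notes, the authors aligned reads with TopHat and counted them with HTSeq 0.6.1 on GRCm38. The deposited values are FPKM in 3 tables. How FPKM was computed and the strand setting are not given in the sources used here, and 1 table has no header.

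Groups came from the labels. Within each table, genes whose mean reached 1 FPKM were tested as log2(FPKM + 1) with limma 3.58.1 (R 4.3.3, empirical Bayes with trend), two-sided, with Benjamini-Hochberg adjustment over all genes tested, so the adjusted p-values are model values from limma. Reads were estimated as FPKM times exon length divided by the smallest step of the library. Between 62.7% and 70.3% of low values lay within 0.02 of a whole read (4.0% by chance), too few for a count test as the main result. One read in a gene of 2000 bases was worth 0.0405 to 0.1326 FPKM. Intervals cover 95%. On simulated data, changes were placed only in genes of at least 5 FPKM, with 1 dispersion for all genes. That dispersion was set in advance and not estimated from these libraries. The recovery below holds for that setting only, and recovery at the spread of these libraries was not simulated. The fits recovered 100% of genes changed by 1 on the log2 scale in the first 2 comparisons and 86% in the Lats2 comparison. In the Lats2 comparison 12 of the 25 tested transporters reached 5 FPKM, and recovery of lower genes was not simulated.

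Values per library are given for transporters called in any comparison and for the 5 most abundant in each, and linked lists are described by up to 3 called genes. The transporters and the lists were chosen with earlier results of these data known. A few further genes (Slc43a2, Slc38a3, Slc7a11, Slc36a2, Nos3 in Lats2 iΔEC, Ddah2) were named after their values were seen. The comparison of signs between tables and limma-voom on estimated reads were also chosen after seeing the data. Alternatives were another pseudocount (0.1), no filter, a filter of 5 FPKM, quantile and median-of-ratios scaling, the replicate number as a block, a stricter threshold and leaving out each library. Promoter sequences are from RefSeq.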

Additional observations from a re-analysis of the deposited data

How the results depend on the processing

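In 152 alternative fits of called transporters, 112 kept the call, 40 lost it and 0 changed direction, and in 103 fits of transporters with only an unadjusted p under 0.05, 20 gained a call. These numbers leave out fits in which a gene fell under the filter and was not tested, and they leave out the stricter threshold. Calls that went missing in those ways are thus not counted as lost. In bmECs, where 3 were higher and 2 lower, the stricter threshold (adjusted p under 0.01 and log2 change over 0.5) left 1 higher and 0 lower, the 5 FPKM filter 2 higher and 1 lower, no filter gave 3 higher and 3 lower (with Slc36a2), and limma-voom 5 higher and 3 lower. Leaving out single libraries gave 2 to 4 higher and 1 to 2 lower. In Lats2 iΔEC, where 5 were higher and 4 lower, the stricter threshold left 0 and 0, no filter 0 higher and 2 lower, the 5 FPKM filter 3 higher and 2 lower, quantile scaling 4 higher and 7 lower, and limma-voom 6 higher and 6 lower, and leaving out single libraries gave 0 to 3 higher and 0 to 5 lower. The filters change which genes are tested. Under the 5 FPKM filter in Lats2 iΔEC the 2 lower genes were Slc3a2 and Slc7a7. None of the 4 genes called lower in the main fit reached that filter. The cause of the other shifts was not tested. In the libraries labelled Yap1/Taz iΔEC the count was 0 in both directions under every alternative run. Whether the replicate numbers pair the libraries was not settled. Same-numbered deviations correlated at 0.307, 0.0876 and 0.102 for mpECs and bmECs, where pairs of unlike number ran from -0.206 to 0.115. In the Yap1/Taz series they correlated at -0.175, -0.123 and -0.155, against -0.154 to 0.235. In the Lats2 series they correlated at 0.0651, against -0.0651. With 2 libraries per group these values mirror each other by construction and cannot decide. The replicate block gave 6 higher and 3 lower in bmECs. In Lats2 iΔEC it left 5 higher and 4 lower, but Slc38a2 lost its call (adjusted p = 0.0572) and Slc7a1 gained one (0.039). Fits that left out a Lats2 library had 1 library in that group, and the lone library is assumed to vary like the other group. Depth limits the low genes, where single reads move the values.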
